A study of Homo sapiens with 15 samples.

Results

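The tip of the short arm of chromosome 5 (5p) carries TERT, the catalytic subunit of telomerase, and was followed here through the 5 sublines of VCaP, an established human prostate cancer cell line. Members were all genes of GRCh38 chromosome 5 with a lowest start between positions 1 and 10440388 and a mean count of at least 10 over the 15 libraries, with 1 gene left out by the rule. This gave 50 of the 58381 counted genes and of the 207 genes in the interval, 35 of them protein-coding. The interval was selected on measured values of these same libraries, so the rise in VCaP-CT-BR-ER described below is a description of the members and carries no test. All 50 members passed the filter on low counts. UBE2QL1 (mean count 11.8) and ENSG00000279075 (15.9) lay just inside the count minimum, and ENSG00000271980 (8.4) and ENSG00000249159 (6.33) just outside it.

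VCaP-T cells had grown in 10 nM testosterone for 7 months. VCaP-CT was derived from them over 10 months in 0.1 nM testosterone, although the treatment label of each derived library gives 10 nM for that time. VCaP-CT-ER was VCaP-CT kept in 10 µM enzalutamide, an androgen receptor antagonist, until it grew again, VCaP-CT-BR was VCaP-CT made insensitive to the antagonist bicalutamide, and VCaP-CT-BR-ER was VCaP-CT-BR then made resistant to enzalutamide. Later enzalutamide is also mentioned in the VCaP-CT-BR label, which leaves its treatment at harvest unclear. Each subline had 3 RNA-seq libraries and came from a single derivation, so drug, time in culture and derivation cannot be told apart. The study describes the libraries of a subline as biological replicates, and the p-values measure the spread between them within 1 derivation. Library totals ranged from 33665716 to 46935279 counts. Of the prostate and VCaP markers, KLK3 was at least 13.5 CPM and ERG at least 244 CPM in every library, where CPM are counts scaled to the library total after TMM adjustment. The 5 fibroblast markers summed to 24.8 CPM in VCaP-CT-BR and 238 CPM in VCaP-CT-BR-ER, and nearly all of that was LUM (23.5 and 236 CPM), while COL1A2 was at 0 and DCN reached at most 0.498 CPM in any library. The 3 endothelial markers summed to 1.13 and 0.183 CPM and the 4 immune markers to 0.892 and 0.388 CPM in the same sublines, and the part of other cell types in the results was not tested.

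As background, telomerase adds repeats to chromosome ends, and its activity is limited in most somatic cells by silencing of TERT, while most cancers express it. The 5p tip also holds genes of mitochondrial respiration, mitotic control and chromatin remodelling. Counts of RNA hold no measure of DNA copy number, which was not tested, and in bulk samples a change in RNA per cell and a change in the share of cells that make it cannot be told apart.

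The members did not move as a single segment. When VCaP-CT-BR-ER was set against VCaP-CT-BR, the 33 members from PLEKHG4B (92151 to 189972) to IRX2-DT (2752131 to 2755397), called the distal stretch here, had a median log2 fold change of 2.55, a 5.86-fold rise. The 17 members from ICE1 (5420664 to 5490234) to MARCHF6 (10353703 to 10440388), the proximal stretch, had a median of 0.36, or 1.29-fold. The interval of the rule ends at the end of MARCHF6, whereas the drop in the values lay between IRX2-DT and ICE1. The stretches were divided at that drop, so the distance between their medians in this step is a description.

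The promoters on either side of that edge are shown, with that of TRIP13 from inside the distal stretch, because these genes lie close to the edge and moved by different amounts. They were taken from RefSeq on GRCh38.p14, each 300 bases long, from 250 bases before to 50 bases after the start, and 34 of the 50 members matched an entry. Capitals mark the GC box GGGCGG on either strand, with overlapping copies counted singly. TRIP13 (chr5:892634-892933, plus strand) holds 3 GC boxes, and its window also spans the annotated start of the minus-strand gene BRD9. IRX2 (chr5:2751628-2751927, minus strand), the last protein-coding gene before the edge, holds 4, and ICE1 (chr5:5422427-5422726, plus strand), the first after it, holds 5.
TRIP13: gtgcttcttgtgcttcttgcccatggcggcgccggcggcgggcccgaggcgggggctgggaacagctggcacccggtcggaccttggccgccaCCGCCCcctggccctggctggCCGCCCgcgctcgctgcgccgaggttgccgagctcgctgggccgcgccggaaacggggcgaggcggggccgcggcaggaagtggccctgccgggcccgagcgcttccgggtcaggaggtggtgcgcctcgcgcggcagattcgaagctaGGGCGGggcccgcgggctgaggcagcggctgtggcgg
IRX2: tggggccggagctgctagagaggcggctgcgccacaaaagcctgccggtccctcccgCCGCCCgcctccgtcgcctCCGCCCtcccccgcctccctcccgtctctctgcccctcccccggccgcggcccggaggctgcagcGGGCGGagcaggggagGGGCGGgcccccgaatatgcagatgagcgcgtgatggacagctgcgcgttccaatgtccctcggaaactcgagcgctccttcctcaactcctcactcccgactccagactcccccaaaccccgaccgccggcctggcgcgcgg
ICE1: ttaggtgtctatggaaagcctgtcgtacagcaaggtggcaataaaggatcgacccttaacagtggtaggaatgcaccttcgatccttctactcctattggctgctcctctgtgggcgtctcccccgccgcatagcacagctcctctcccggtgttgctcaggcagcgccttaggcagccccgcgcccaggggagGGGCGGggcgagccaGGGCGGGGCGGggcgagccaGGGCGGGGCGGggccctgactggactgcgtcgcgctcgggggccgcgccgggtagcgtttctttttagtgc
A GC box was present in 20 of 24 distal promoters (83.3%) and 8 of 10 proximal ones (80%), against 45% of all 35116 promoters in the table. The motif CCAAT, on either strand, was found in 20.8% of distal, 30% of proximal and 34.6% of all promoters. TATAAA, also on either strand, was in 0 of the 34 members' promoters and in 11.5% of all. The median number of CG pairs per window was 38.5 in the distal, 31 in the proximal and 14 in all promoters. These sets are unlike: members had a single entry per gene and had passed the count minimum. All promoters means every entry, whether or not the gene was expressed here. No test was run on these shares, and a match is a run of letters and not a shown binding site.

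TERT (1253147 to 1295069, minus strand) was low in every subline. Its level was 1.32, 1.14 and 1.53 CPM in the VCaP-T libraries, 1.18, 1.14 and 0.838 CPM in VCaP-CT, 0.58, 0.209 and 0.273 CPM in VCaP-CT-ER, 0.441, 0.183 and 0.372 CPM in VCaP-CT-BR, and 3.74, 2.87 and 2.86 CPM in VCaP-CT-BR-ER. The 3 VCaP-CT-BR-ER libraries lay above all others, VCaP-T and VCaP-CT overlapped, and VCaP-CT-ER and VCaP-CT-BR overlapped at the bottom of the order. These levels rest on 7 to 154 counts per library. The level fell by 1.54 on the log2 scale (SE 0.31, adjusted p = 0.000237) in VCaP-CT-ER against VCaP-CT. It fell by 1.65 (SE 0.33, adjusted p = 0.000264) in VCaP-CT-BR against VCaP-CT. It differed by -0.35 (SE 0.26, adjusted p = 0.237) between VCaP-CT and VCaP-T, which did not pass the test. In VCaP-CT-BR-ER against VCaP-CT-BR the log2 fold change was 3.24 (SE 0.27), or 9.43-fold.

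**Figure D1:**
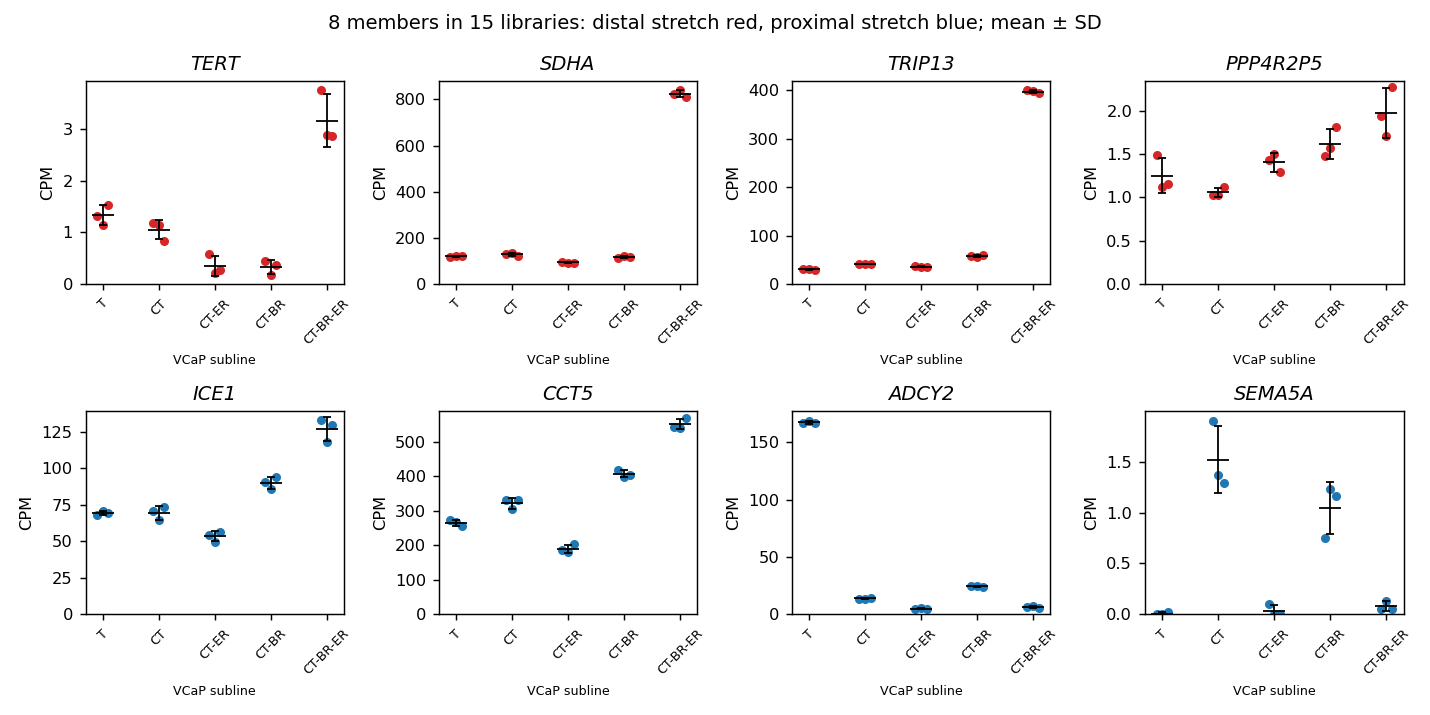
CPM (y axis, from 0) of 8 members in the 5 VCaP sublines (x axis), with 1 point per library and the mean ± SD of 3 libraries in black. TERT, SDHA and TRIP13 of the distal stretch (red) stood highest in VCaP-CT-BR-ER, at means of 3.16, 825 and 397 CPM, while the pseudogene PPP4R2P5 lay between 1.71 and 2.28 CPM there and ADCY2 and SEMA5A of the proximal stretch (blue) were low there.

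SDHA, the flavoprotein subunit of succinate dehydrogenase (respiratory complex II), lay near the tip at 218241 to 256700. Its level was 112, 120 and 119 CPM in VCaP-CT-BR and 822, 842 and 810 CPM in VCaP-CT-BR-ER, a 7.05-fold difference, and all 12 other libraries lay between 90.9 and 135 CPM. The mitochondrial genes further along moved with it. NDUFS6, an accessory subunit of complex I, went from 60.1 ± 4.01 to 303 ± 18.8 CPM (SD, n = 3), and MRPL36, a protein of the large mitochondrial ribosomal subunit, from 29.5 ± 1.51 to 182 ± 8.22 CPM. Per kilobase of exon, NDUFS6 was the more highly expressed of the 2 complex subunits in VCaP-CT-BR-ER, at 209 CPM per kilobase against 98.4 for SDHA.

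TRIP13, an AAA+ ATPase that acts on the mitotic checkpoint, stood at 58.5, 55.5 and 59.8 CPM in VCaP-CT-BR and at 399, 398 and 393 CPM in VCaP-CT-BR-ER. BRD9, a subunit of a SWI/SNF chromatin remodelling complex that starts 181 bases from TRIP13 on the other strand, went from 38, 37.3 and 37.2 CPM to 279, 298 and 291 CPM. The groups did not overlap for either gene, and the fold changes were 6.85 and 7.71. TRIP13 had already differed between earlier sublines, with 0.42 (SE 0.05, adjusted p = 1.3e-07) from VCaP-T to VCaP-CT and 0.50 (SE 0.05, adjusted p = 1.99e-08) from VCaP-CT to VCaP-CT-BR on the log2 scale, while BRD9 did not pass the test in the latter step (0.06, SE 0.05, adjusted p = 0.311).

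Transport, membrane and signalling genes of the distal stretch had similar folds in this step. The fold was 6.46 for EXOC3 of the exocyst, 5.86 for the potassium-chloride cotransporter SLC12A7, 5.21 for the membrane protein CLPTM1L, 8.62 for the phospholipid-remodelling enzyme LPCAT1, 6.02 for the centrosomal protein CEP72, 5.56 for the calcium-binding protein PDCD6 and 4.22 for AHRR, the repressor of the aryl hydrocarbon receptor. LPCAT1 rose from 8 to 18 counts per library to between 105 and 121, so its fold is the least precise of these (log2 SE 0.26). The Iroquois homeobox genes at the inner end, IRX4 and IRX2, had folds of 6.45 and 4.57. Of these, IRX4 fell in each of the other steps of derivation. On the log2 scale it fell by 0.82 (SE 0.10, adjusted p = 2.93e-07) in VCaP-CT against VCaP-T. It fell by 0.94 (SE 0.11, adjusted p = 2.35e-07) in VCaP-CT-BR against VCaP-CT. In VCaP-CT-ER against VCaP-CT, a separate branch, it fell by 0.55 (SE 0.10, adjusted p = 9.36e-05).

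Over the distal stretch, 31 of 33 members were called higher and 0 lower in VCaP-CT-BR-ER against VCaP-CT-BR, and over all 50 members 44 were higher and 3 lower, where 21.2% of all 19621 tested genes were higher and 21.7% lower. In 31 of 33 distal members all 3 VCaP-CT-BR-ER libraries lay above the other 12, which held for 4.48% of tested genes. The contrast had chosen the members, so these counts only describe them. The fold was even along the stretch: 25 of 33 members lay between 2 and 3 on the log2 scale, and the quartiles were 2.19 and 2.77, an interquartile range of 0.58 around a median of 2.55. The interquartile range of all tested genes in this step was 0.54 around a median of 0.00. The size of the rise was weakly related to other features of the genes. Spearman's rank correlation across the 33 genes, which share libraries and neighbours, was 0.06 with the level in VCaP-CT-BR (0.332 to 117 CPM), 0.34 with exon length and -0.10 with position. The 15 members on the plus strand had a median of 2.48 and the 18 on the minus strand 2.59. The 21 protein-coding members had a median of 2.62 and the 12 others, mostly long noncoding RNAs and pseudogenes, 2.24.

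**Figure D2:**
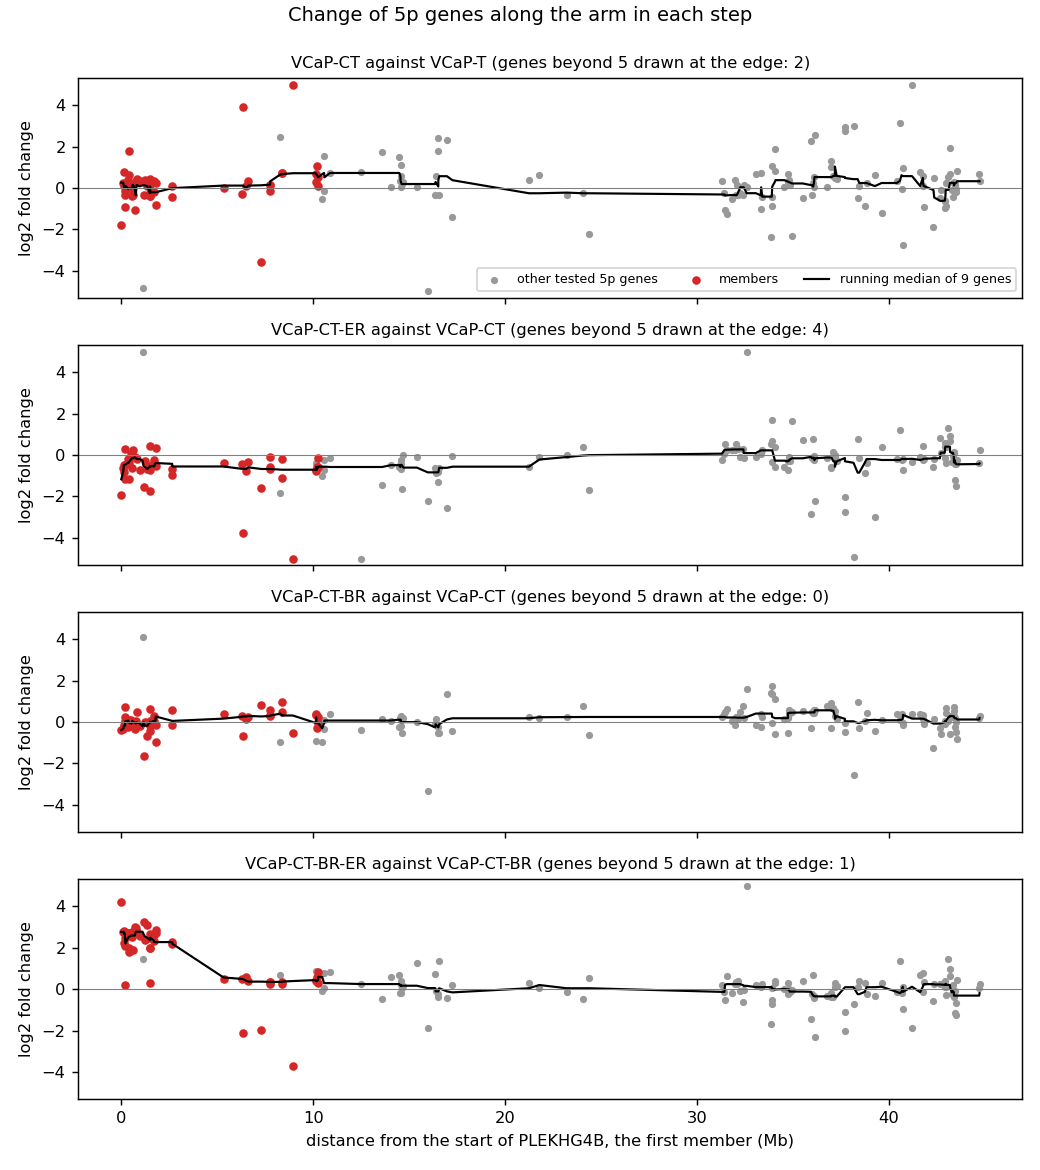
Log2 fold change (y axis) of tested 5p genes against the distance from the start of PLEKHG4B in Mb (x axis), with members in red, other genes in grey and the running median of 9 genes as a line, for each of the 4 steps. Genes beyond 5 in either direction are drawn at the edge. The plot of the step to VCaP-CT-BR-ER shows red points around 2.55 up to IRX2-DT and around 0.36 from ICE1 on, and the other steps show no comparable drop.

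The edge of the rise was sharp in this step. A single split of the 168 tested 5p genes that best reduced the sum of squares fell between IRX2-DT and ICE1, with medians of 2.53 before and 0.10 after, and it removed 55.8% of the sum of squares. With the 110 genes of at least 100 mean counts the split fell between IRX2 and ICE1 and removed 68.1%. The running median of 9 genes was 2.19 at IRX2-DT and 0.56 at ICE1. A window of 5 genes gave the same last gene, and one of 15 genes gave IRX2, the gene before it. In the other steps the best split was placed anew and fell after other genes. It fell after MED10 and removed 1.82% in VCaP-CT against VCaP-T. In VCaP-CT-ER against VCaP-CT it fell after BASP1 and removed 5.45%. In VCaP-CT-BR against VCaP-CT it fell after MYO10 and removed 3.2%.

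The position of the edge could not be set more finely than the 2.67 Mb between IRX2-DT and ICE1. This gap holds 33 genes, and 24 of them had a count of 0 in all 15 libraries, IRX1 among them, which allows at most 3 counts per library, or 0.0639 to 0.0891 CPM. The summed counts of the gap's genes were 12 to 14 in the VCaP-CT-BR libraries and 11 to 26 in VCaP-CT-BR-ER. ADAMTS16, a metalloprotease gene in the gap, had 7, 8 and 6 counts in VCaP-CT-BR and 8, 0 and 1 in VCaP-CT-BR-ER. These counts are too few to place any of these genes on either side.

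The weakly counted genes of the distal stretch as a sum were also highest in VCaP-CT-BR-ER. The 42 distal genes below the count minimum together had 15 to 23 counts in the VCaP-CT-BR libraries and 64 to 83 in VCaP-CT-BR-ER, above the 18 to 44 of VCaP-T, VCaP-CT and VCaP-CT-ER. PDCD6-DT had 0, 1 and 2 counts and then 12, 8 and 12. Of the 42, 20 were at 0 in all 15 libraries, including the dopamine transporter SLC6A3 and the Wnt modulator NKD2, and 22 were at 0 in all 3 VCaP-CT-BR-ER libraries, against 27 in VCaP-CT-BR. The amino acid transporter SLC6A19, tested but not a member, had 1, 3 and 2 counts in the VCaP-CT-BR libraries, 2, 7 and 8 in those of VCaP-CT-BR-ER and 14, 14 and 18 in VCaP-CT-ER, so its highest level was in a different subline. The 81 proximal genes below the minimum had 44 to 52 and 56 to 80 summed counts in these sublines.

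**Figure D3:**
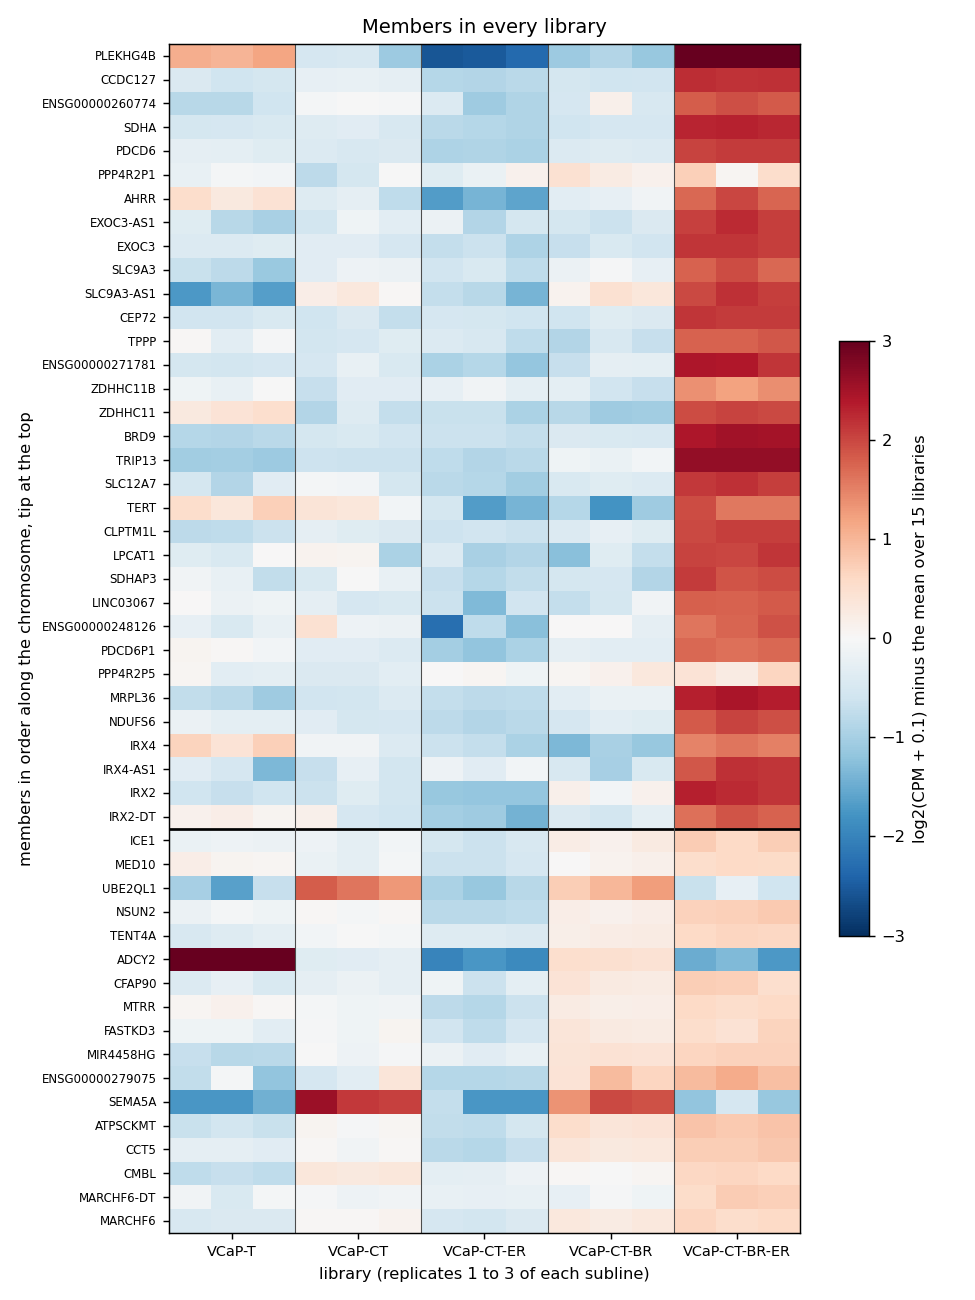
Log2 CPM, with a small constant added to each value, minus the gene's mean over 15 libraries (colour) for the 50 members in order along the chromosome (rows, tip at the top) in every library (columns, 3 per subline). The horizontal line marks the edge after 33 members. Above it, VCaP-CT-BR-ER is red in every row but those of PPP4R2P1 and PPP4R2P5, which are pale.

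Within the distal stretch, PPP4R2P1 and PPP4R2P5 did not follow the others. Both are pseudogenes of PPP4R2, a phosphatase subunit gene on chromosome 3. PPP4R2P1 stood at 1.5, 1.28 and 1.19 CPM in VCaP-CT-BR and 1.82, 1.11 and 1.6 CPM in VCaP-CT-BR-ER, and PPP4R2P5 at 1.48, 1.57 and 1.81 and then 1.94, 1.71 and 2.28 CPM. The groups overlapped for both, with log2 fold changes of 0.20 (SE 0.21) and 0.29 (SE 0.16). PPP4R2 itself went from 92 to 77 CPM, and reads of a pseudogene and its parent can be exchanged in counting, which was not tested. Other members also have close copies: SDHA with SDHAP3, PDCD6 with PDCD6P1, and ZDHHC11 with ZDHHC11B all lie within the distal stretch, with fold changes on the log2 scale of 2.82 and 2.66, 2.48 and 2.01, and 2.99 and 1.88. SDHAP1 on chromosome 3, another copy, had 10.7 CPM in VCaP-CT-BR and 11.8 CPM in VCaP-CT-BR-ER. Counting took no account of strand, and 26 of the 50 members overlap another. The 9 distal members with neither a copy nor an overlap were all called higher, where 21.2% of tested genes were. They belong to the stretch chosen on this step, so the count describes them, and the part of shared reads was not tested.

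Measured against the median of the distal stretch, 9 distal members differed by at least 0.5 on the log2 scale with an adjusted p under 0.05. PLEKHG4B, the outermost member, and TERT lay above it. PLEKHG4B stood at 2.15, 2.51 and 2.06 CPM in VCaP-CT-BR and 42, 40.3 and 41 CPM in VCaP-CT-BR-ER, an 18.3-fold difference. It had fallen by 1.81 (SE 0.12, adjusted p = 1.34e-11) from VCaP-T to VCaP-CT and by 0.38 (SE 0.14, adjusted p = 0.0292) from VCaP-CT to VCaP-CT-BR. In the separate branch from VCaP-CT to VCaP-CT-ER it fell by 1.94 (SE 0.17, adjusted p = 2.22e-09). Those below the distal median were both PPP4R2 pseudogenes, SLC9A3, SLC9A3-AS1, ZDHHC11B, ENSG00000248126 and PDCD6P1. When the median of all 50 members, 2.14, was the reference, 33 members differed, 14 above and 19 below. All 17 proximal members were among those below. The members and the split between the stretches were chosen on this step, so these counts describe that choice and carry no test.

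Head-to-head gene pairs, with starts within 1000 bases on opposite strands, differed by between 0.01 and 0.61 on the log2 scale in this step. There were 10 such pairs among the members, 7 of them distal. The log2 fold changes were 2.77 and 2.82 for CCDC127 and SDHA, 2.70 and 2.69 for EXOC3-AS1 and EXOC3, 2.95 and 2.78 for BRD9 and TRIP13, 2.62 and 2.34 for MRPL36 and NDUFS6, 2.66 and 2.48 for SDHAP3 and LINC03067, and 2.19 and 2.27 for IRX2 and IRX2-DT. The pair of ENSG00000260774 and SDHA was further apart, at 2.21 and 2.82. The 3 proximal pairs had 0.39 and 0.44 for ATPSCKMT and CCT5, 0.35 and 0.36 for CFAP90 and MTRR, and 0.85 and 0.29 for MARCHF6-DT and MARCHF6. Partners at a shared start can share reads without a strand setting.

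The proximal stretch mostly rose in this step, by less than the distal one, with 13 of 17 members higher and 3 lower, where 21.2% of tested genes were higher and 21.7% lower. The contrast had chosen the members, so nothing is read from these counts. CCT5, a subunit of the TRiC chaperonin, stood at 419, 399 and 404 CPM in VCaP-CT-BR and 544, 541 and 569 CPM in VCaP-CT-BR-ER, a fold of 1.35 without overlap. ICE1 of the little elongation complex had a fold of 1.41, MED10 of the Mediator complex 1.39, the RNA methyltransferase NSUN2 1.48, the poly(A) polymerase TENT4A 1.33, the methionine synthase reductase MTRR 1.29, FASTKD3, a regulator of mitochondrial RNA, 1.19, the hydrolase CMBL 1.5 and the ubiquitin ligase MARCHF6 1.22. None of the 17 reached 3-fold, which 31 of 33 distal members did. The stretches were divided on these same fold changes, so this contrast between them describes the choice and carries no test.

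ADCY2, SEMA5A and UBE2QL1 went the opposite way. ADCY2, an adenylate cyclase, fell from 25, 24.7 and 23.9 CPM in VCaP-CT-BR to 6.24, 7.02 and 5.3 CPM in VCaP-CT-BR-ER, and by 1.57 (SE 0.08, adjusted p = 6.81e-13) on the log2 scale from VCaP-CT to VCaP-CT-ER. It stood at 167, 169 and 167 CPM in VCaP-T, above every other library. The semaphorin SEMA5A had 29, 47 and 47 counts in VCaP-CT-BR and 2, 5 and 2 in VCaP-CT-BR-ER. It had 63, 48 and 46 counts in VCaP-CT, 5, 0 and 0 in VCaP-CT-ER and 0, 0 and 1 in VCaP-T, so it was seen clearly in 2 of the sublines only. UBE2QL1, related to ubiquitin-conjugating enzymes, followed the same order, with 16, 20 and 26 counts in VCaP-CT-BR, then 4, 6 and 4 in VCaP-CT-BR-ER. Its counts were 33, 30 and 24 in VCaP-CT, against 3, 2 and 3 in VCaP-CT-ER and 2, 0 and 4 in VCaP-T. No fold is given for SEMA5A and UBE2QL1, whose counts lay at or near the limit of 3 counts in several libraries.

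Past the last member the values were mixed in direction. Of the next 6 genes with at least 10 mean counts, DAP, CTNND2 and TRIO had log2 fold changes of 0.78, 0.83 and 0.60 in VCaP-CT-BR-ER against VCaP-CT-BR (SE 0.04, 0.05 and 0.05, adjusted p = 5.24e-12, 2.53e-11 and 8.35e-09). ANKRD33B and ENSG00000251548 had -0.11 (SE 0.21) and 0.06 (SE 0.12), which did not pass, and DNAH5, an axonemal dynein, fell by 0.47 (SE 0.08, adjusted p = 4.76e-05). The 21 tested genes beyond the interval up to 17 Mb had a median of 0.16 and the 94 from there to 48 Mb 0.02. The other 115 tested 5p genes had a median of 0.05, with 31 higher and 27 lower, and the 745 tested genes of the long arm a median of -0.36, with 55 higher and 395 lower. Genome-wide, 90 genes with at least 100 mean counts rose by at least 2 on the log2 scale, and 22 of them, 24.4%, were distal members, which made up 0.192% of the 12489 genes of that count. The interval and the edge of the distal stretch were chosen on these same values, so this share describes the members and carries no test.

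**Figure D4:**
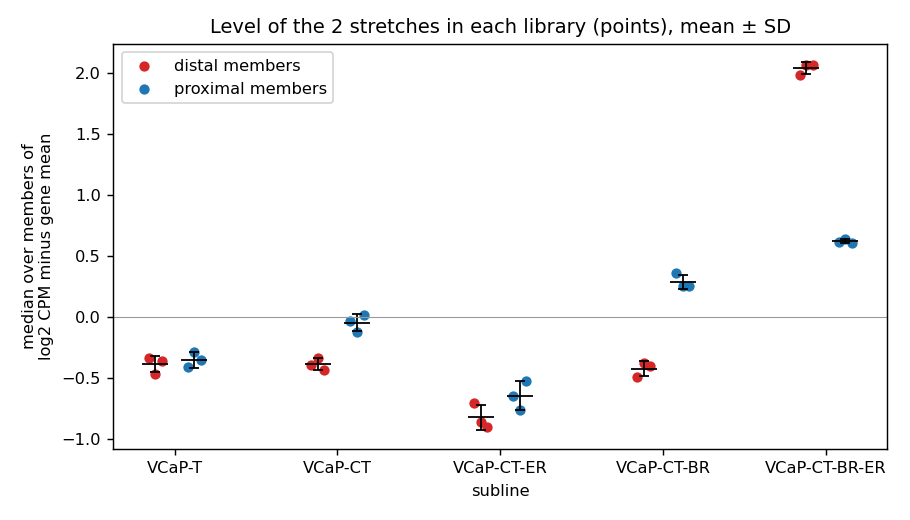
Median over the distal (red) and proximal (blue) members of log2 CPM minus the gene's mean over 15 libraries (y axis) for each library (points) of each subline (x axis), with mean ± SD of 3 libraries. Distal levels were between 1.99 and 2.07 in VCaP-CT-BR-ER and at most -0.33 in all other libraries, while proximal levels spanned -0.76 to 0.64.

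In the other sublines the distal and proximal stretches stayed closer together. The distal level, the median over members of log2 CPM minus the gene's mean, was -0.38 ± 0.07 (SD, n = 3) for VCaP-T, -0.39 ± 0.05 for VCaP-CT and -0.82 ± 0.11 for VCaP-CT-ER. It was -0.42 ± 0.06 for VCaP-CT-BR, against 2.04 ± 0.05 for VCaP-CT-BR-ER. VCaP-T, VCaP-CT and VCaP-CT-BR overlapped. The proximal level was -0.34 ± 0.07, -0.04 ± 0.07, -0.64 ± 0.12, 0.30 ± 0.06 and 0.62 ± 0.02 in the same order. As a share of all counts the distal members made up 0.0591% of VCaP-CT-BR, against 0.364% of VCaP-CT-BR-ER.

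In VCaP-CT against VCaP-T 18 of 50 members rose and 13 fell, against 33.1% and 32.2% of tested genes. The median was 0.28 for the proximal members and 0.08 for the distal ones, and the latter ranged from -0.04 (without VCaP-CT replicate 2) to 0.13 when each library was left out in turn. Of the 17 proximal members 9 rose and 3 fell, and 13 lay above 0. The other 115 tested 5p genes had a median of 0.22 and the 745 of the long arm 0.23 in this step. Of the distal members 9 rose and 10 fell, and under 75th percentile scaling 11 rose and 8 fell. SLC9A3-AS1 (1.80, SE 0.15, adjusted p = 8.07e-10) rose most among distal members, and PLEKHG4B, ZDHHC11 (-1.06, SE 0.11, adjusted p = 1.96e-08) and AHRR (-0.91, SE 0.14, adjusted p = 5.38e-06) fell. In the proximal stretch CMBL rose by 1.07 (SE 0.05, adjusted p = 7.12e-14) and MARCHF6 by 0.52 (SE 0.05, adjusted p = 3.05e-09), while ADCY2 fell by 3.58 (SE 0.07, adjusted p = 5.28e-20). Of the 50 members 16 differed from the members' median by at least 0.5 with an adjusted p under 0.05, and 8 of them had the opposite sign, namely PLEKHG4B, AHRR, TPPP, ZDHHC11, PDCD6P1, IRX4, IRX2-DT and ADCY2.

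In VCaP-CT-ER against VCaP-CT most members fell. Of 50 members 38 were lower and 1 higher, against 31.2% and 29.6% of tested genes, with a median of -0.55 where that of all tested genes was -0.02. Distal and proximal medians were -0.48 and -0.59. In the same comparison the fibroblast markers summed to 10.7 and then 198 CPM, with LUM at 6.24 and 196 CPM, and the endothelial markers to 8.6 and then 0.198 CPM, and their part in the fall was not tested. The fall was not limited to the interval: the 21 tested genes beyond it up to 17 Mb had a median of -0.62, with 17 lower and 0 higher, the 94 genes from there to 48 Mb -0.10, and the genes of the long arm -0.40, with 417 of 745 lower. CCT5 fell by 0.76 (SE 0.05, adjusted p = 3.39e-11), NSUN2 by 0.79 (SE 0.04, adjusted p = 1.94e-12), SDHA by 0.46 (SE 0.05, adjusted p = 4.29e-08) and PDCD6 by 0.48 (SE 0.04, adjusted p = 3.93e-09). CEP72 (0.04, SE 0.08, adjusted p = 0.683) and ZDHHC11 (-0.11, SE 0.11, adjusted p = 0.423) did not pass the test. The member called higher was PPP4R2P5 (0.42, SE 0.18, adjusted p = 0.0462). It lost that call in 10 of the 12 alternatives tried. In this step 13 members differed from the members' median by at least 0.5, with PPP4R2P1, CEP72, ZDHHC11B, PPP4R2P5 and IRX4-AS1 above it and PLEKHG4B, AHRR, SLC9A3-AS1, TERT, ENSG00000248126, UBE2QL1, ADCY2 and SEMA5A below. With 1.5-fold required besides the test, 21 members were lower and 0 higher, and the share of all tested genes under that rule is not given here.

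In VCaP-CT-BR against VCaP-CT 18 of 50 members rose and 9 fell, against 26.1% and 27% of tested genes. Among the 17 proximal members 13 rose and 1 fell, with a median of 0.30, and among the 33 distal members 5 rose and 8 fell, with a median of -0.07. A rise was also seen further along the arm. The 94 tested genes from 17 to 48 Mb had a median of 0.24, with 47 higher and 8 lower. The 21 between the interval and 17 Mb had -0.10, with 3 higher and 6 lower. The sign of the distal median was not stable, since it was 0.02 without VCaP-CT replicate 1 and 0.00 over distal members with a mean count of at least 100. ICE1 rose by 0.37 (SE 0.06, adjusted p = 2.99e-05) and CCT5 by 0.34 (SE 0.05, adjusted p = 8.31e-06), and the member that fell was CMBL (-0.30, SE 0.05, adjusted p = 3.02e-05). The count for the distal stretch rests partly on VCaP-CT replicate 2, without which 8 distal members were called in place of 13. From the members' median of 0.05, 9 members differed by at least 0.5, and TERT and IRX4 had the opposite sign. The difference between the stretches was not tested, since the split came from these data.

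Against VCaP-T, 5 members rose and 26 fell in VCaP-CT-ER, against 34.3% and 34.7% of tested genes. In VCaP-CT-BR 22 rose and 11 fell, against 35.9% and 35.3%. In VCaP-CT-BR-ER 47 were higher and 1 lower, against 34.9% and 35.3%, and this comparison shares its libraries with the choice of the members. These comparisons share the VCaP-T libraries. The distal and proximal medians in the last of them were 2.51 and 1.04. Genes further along the arm also rose in it. The 21 tested genes beyond the interval up to 17 Mb had a median of 0.68, with 16 higher and 3 lower. The 94 from there to 48 Mb had 0.42, with 51 higher and 20 lower.

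The step to enzalutamide resistance was compared between both backgrounds by an interaction term. It was larger from VCaP-CT-BR than from VCaP-CT in 46 members and smaller in 1, ADCY2, against 25.2% and 24.5% of tested genes. The median difference on the log2 scale was 3.00 for the distal and 0.99 for the proximal members. The proximal value was not particular to the interval. The 21 tested genes beyond it up to 17 Mb had a median difference of 0.90, with 16 higher and 0 lower. The 94 from there to 48 Mb had 0.09, with 19 higher and 11 lower. The VCaP-CT-BR-ER libraries enter this difference too, so the count describes the members.

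Genes outside 5p whose products work with those of the members were counted for comparison, beside 21.2% of tested genes higher and 21.7% lower in VCaP-CT-BR-ER against VCaP-CT-BR. Of 18 listed genes of telomerase and the telomere-binding complexes, 15 were tested, and 4 rose and 3 fell, a number near that background, between -0.80 and 0.28 on the log2 scale. NHP2 fell by 0.80 (SE 0.06, adjusted p = 1.38e-09), and DKC1, the telomerase pseudouridine synthase, rose by 0.13 (SE 0.05, adjusted p = 0.0267). Of 7 partners and assembly factors of SDHA 0 rose and 4 fell, with SDHB at -0.19 (SE 0.06, adjusted p = 0.0147). Of 10 complex I partners of NDUFS6, 1 rose and 5 fell. Of 7 TRiC partners of CCT5 0 rose and 4 fell, and all 7 lay below 0, down to -0.55 for TCP1. Of 25 Mediator partners of MED10 5 rose and 5 fell, between -0.61 for MED20 and 0.52 for MED30.

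The genes with the profile most like that of TERT over the 15 libraries were led by MYO10, DAP and IRX4 of the same arm. By Pearson's r of log2 CPM, given as a description over libraries that fall into 5 groups, the most alike were MYO10 (0.955, also on 5p at 16661914), DAP (0.930), IRX4 (0.924), TDRP on chromosome 8 (0.919) and H2AC6 on chromosome 6 (0.916). MYO10 stood at 82.4 CPM in VCaP-T, at 65 in VCaP-CT, at 42.5 in VCaP-CT-ER, at 45.6 in VCaP-CT-BR, and at 115 in VCaP-CT-BR-ER. The median r of TERT with the other distal members was 0.76, between 0.14 and 0.92, and with the proximal members 0.41. Many genes elsewhere were more like TERT than most distal members were. By r among the 19621 tested genes, IRX4 ranked 3, PLEKHG4B 8, ZDHHC11 12, IRX2-DT 16, SDHA 95 and BRD9 290. The distal members ranked last were SLC9A3 at 565, SLC9A3-AS1 at 1489, PPP4R2P5 at 5863 and PPP4R2P1 at 6774. The VCaP-CT-BR-ER libraries, on which the interval was chosen, enter r, so likeness among members is a description.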

How the data were processed

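RNA was sequenced from 5 VCaP sublines with 3 libraries each. Per the labels and the study's methods, the authors aligned paired reads to GRCh38 with STAR (2.5.4b) and counted exon reads per gene with featureCounts (1.6.2) on GENCODE 28. The deposited values are raw counts of 58381 genes, with no strand setting, so antisense and overlapping genes can share reads. Symbols and gene types came from GENCODE 44, which matched 57754 identifiers (98.9%). The members, gene lists and tests were chosen with earlier results of these data known.

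Counts were filtered with filterByExpr (minimum count 10, 19621 genes kept), scaled by TMM and tested with edgeR's quasi-likelihood test (4.0.16, R 4.3.3) in 1 fit over all sublines, with Benjamini-Hochberg adjustment over all tested genes and a threshold of 0.05. The common biological coefficient of variation was 0.061. Log2 fold changes are given with their standard errors, and CPM were computed with the TMM library sizes. The test was tried on simulated data first. Totals of 33665716 to 46935279 counts make a count of 0 compatible with up to 3 counts (0.0639 to 0.0891 CPM). Such limits cover counting error only. Levels for the comparison of libraries are log2 CPM with a prior count of 2. By rule, the genes named were TERT and the 5 genes most like it, the first 3 and last 3 members, the 6 next genes, in the step with the largest median the 5 largest and 5 smallest changes among members with a mean count of at least 100, up to 10 members that differed from the median with the opposite sign, and a list of members by role. Others, among them the PPP4R2 pseudogenes, PDCD6-DT, NHP2, SDHB, TCP1, MED20 and MED30, were named after their values were seen. The alternatives were DESeq2 (1.42.0), other scalings, no filter, a mean count of at least 100, a change of at least 1.5-fold, only the compared sublines, each library left out, and the replicate number as a block. The numbers do not pair the samples: over 30 same-numbered pairs the correlation of deviations from the group means averaged -0.00758, and it exceeded 0.1 in 11. Libraries of a subline differed by 3.01 to 17.6 times sampling noise, so none was counted as the same library deposited again. Some items are not reported here.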

Additional observations from a re-analysis of the deposited data

Results flagged for a closer look

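The step to enzalutamide resistance differed between the VCaP-CT-BR and VCaP-CT backgrounds, by an interaction term in edgeR, in 47 members. By the same term 25.2% of all tested genes were higher and 24.5% lower. On the log2 scale the difference had a median of 3.00 over the distal and 0.99 over the proximal members. Over the 21 tested genes beyond the interval up to 17 Mb the median was 0.90, and over the 94 from there to 48 Mb 0.09. The difference was 6.14 (SE 0.20) for PLEKHG4B, 4.78 (SE 0.42) for TERT and 3.27 (SE 0.07) for SDHA. All 3 genes were lower in VCaP-CT-ER than in VCaP-CT and higher in VCaP-CT-BR-ER than in VCaP-CT-BR. The members had been chosen on the VCaP-CT-BR-ER libraries, so these values describe them.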

How the results depend on the processing

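Over 255 results and 3342 alternatives, 3218 values were taken as unchanged, 85 named-gene calls were lost and 14 gained. Of the others, 25 counts, medians or positions moved and 0 reversed. A named gene was unchanged if it kept its side of the threshold and, where called, its direction. Medians had to lie within the spread of the libraries. Counts had to stay within 1.5-fold of the main count, and edges within a small set distance of the main position. With 1.5-fold required besides the adjusted p, members called fell to 13 in VCaP-CT against VCaP-T (7 distal, 6 proximal), 21 in VCaP-CT-ER against VCaP-CT (12 and 9), 7 in VCaP-CT-BR against VCaP-CT (5 and 2), 15 in VCaP-CT-ER against VCaP-T and, for proximal members in VCaP-CT-BR-ER against VCaP-CT-BR, 5. The share of all tested genes under that 1.5-fold rule is not given here, so nothing is read from these counts. With members of at least 100 mean counts the proximal median of VCaP-CT against VCaP-T was 0.17. With genes of at least 100 mean counts the best split of 5p moved to 0.304 Mb in VCaP-CT against VCaP-T, to 31.4 Mb in VCaP-CT-ER against VCaP-CT and to 24.5 Mb in VCaP-CT-BR against VCaP-CT. With copies and overlapping members left out, an alternative chosen after seeing the data, 9 of 9 distal members were called in VCaP-CT-BR-ER against VCaP-CT-BR. In that step 21.2% of tested genes were higher and 21.7% lower, and the members had been chosen on it.

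With each library left out in turn, the median of VCaP-CT against VCaP-T ranged from 0.06 (without VCaP-CT replicate 2) to 0.15 over all members and from -0.04 to 0.13 over the distal ones. In VCaP-CT-BR against VCaP-CT 8 (without VCaP-CT replicate 2) to 15 distal members were called, with medians from -0.11 to 0.02 (without VCaP-CT replicate 1). The members' median ranged from 0.13 to 0.26 (without VCaP-T replicate 1) in VCaP-CT-BR against VCaP-T and from 1.90 to 1.98 in VCaP-CT-BR-ER against VCaP-T. The distal median of VCaP-CT-BR-ER against VCaP-CT-BR ranged from 2.54 to 2.63. The cause of these shifts was not tested.

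The samples share only a replicate number. With the replicate block, 31 members were called in VCaP-CT against VCaP-T, 38 in VCaP-CT-ER against VCaP-CT, 27 in VCaP-CT-BR against VCaP-CT, whereas 47 were in VCaP-CT-BR-ER against VCaP-CT-BR. In the same order 12727, 11861, 10322 and 8378 of the 19621 tested genes were called with that block. The planned restriction to genes with a protein sequence was not run, since no such table was used here.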
